A study of Mus musculus with 6 samples.

Results

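The genes around Pebp1 on mouse chromosome 5 are the protein-coding genes of the deposited count table that start from 12.3 Mb before to 7.72 Mb after the start of Pebp1 (build mm10, positions as the authors' table gives them), 216 of the 18368 genes in that table. Selplg and Gfi1 were left out, and so were genes with names starting Rpl, Rps, Mrp, Nduf, Psm, Eif, Cox, Atp5, Oas or Gbp, 21 protein-coding genes in all. Of the 216 genes, 191 had enough reads to be tested, among 14443 tested over the genome. The other 25 stayed at or below 2 FPKM (fragments scaled to gene length and to the reads of the library) and at 90 reads or fewer in every library, so the statements below cover the 191.

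The interval was chosen by the difference between the groups in these same 6 libraries: 4 of the 8 chromosome 5 genes that the authors' deposited table lists below an adjusted p of 0.05 start in it, namely Pebp1, Prkab1, Setd8 and Fam69a. The values that follow are therefore a description, and shares over all genes stand beside them as background only. At its edges, Lrrc8b just inside (start 105415775) had 8.80 FPKM in WT and 8.32 in Mut and Zfp664 (start 124862691) had 26.5 and 26.5. Gbp6, the nearest gene beyond Lrrc8b and left out by its name, had 8.91 and 17.9 FPKM. Its groups overlapped, at a log2 fold change of 1.015 with a standard error (SE) of 0.75.

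Each library was made from total RNA of about 2000 sorted HSCs, the haematopoietic stem cells from which all blood cells descend, taken from bone marrow of adult mice. WT denotes 3 libraries of genotype Ramp1+/+, and Mut denotes 3 libraries of the Ramp1 mutant, whose genotype the labels spell Ramp-/-. Ramp1 encodes an accessory subunit of the receptor for CGRP, a neuropeptide of pain-sensing nerves, and the series title names such nerves as regulators of stem cell mobilization. The labels give neither the allele nor the sort gate, nor whether the libraries are separate animals. The p-values reflect the variation among these 6 libraries, which may be technical in part. Libraries held 22796771 to 26734561 reads in genes, and the members took 1.43% to 1.52% of them. Ramp1 had 91.4, 88.3 and 91.0 FPKM in WT and 3.53, 2.66 and 1.35 FPKM in Mut, and it fell by 5.17 on the log2 scale (SE 0.31; edgeR quasi-likelihood test, Benjamini-Hochberg adjusted p = 0.00146). Every gene of the count table had reads in Mut replicate 1 or 2, so a gene silent in both could not be a member.

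All 11 HSC markers checked, among them Kit, Procr and Slamf1, were present, with summed levels of 1363 to 1618 FPKM in WT and 1377 to 1734 in Mut. Neutrophil markers (8 of 8 present) summed to 34.5 to 765 FPKM in WT and 172 to 1068 in Mut, and erythroid markers (5 of 5) to 4.08 to 41.3 and 28.8 to 120. Megakaryocyte markers (4 of 4) summed to 113 to 145 and 81.3 to 143 FPKM, and stromal and endothelial markers (5 of 5) to 7.48 to 15.7 and 5.70 to 20.8. B cell markers, 4 of 5 in the table with Cd79b making up most of the sum, lay at 37.8 to 42.4 and 34.6 to 48.0 FPKM, and T cell markers (4 of 4) at 0 to 0.388 and 0.421 to 1.29. Y-linked genes had 6527 reads in WT replicate 1 and 6137 in Mut replicate 1, and at most 2 in any other library. Xist, an RNA of female cells, had 10 and 5 reads in replicate 1 of WT and Mut and 1456 to 3540 in the other libraries. Replicate 1 of each group thus differed in sex from replicates 2 and 3. The part of these cell types in the differences below was not tested. With a term for Y-linked reads in the fit, the log2 fold change of Pebp1 was 1.02, the log2 fold change of Rab35 was -1.86 and the log2 fold change of Sppl3 was -1.45, with no member passing. In bulk RNA fewer cells of a type and less RNA per cell cannot be told apart.

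Pebp1 encodes Raf kinase inhibitor protein, which keeps Raf kinases from phosphorylating MEK, so that growth factor and cytokine signals pass less readily from Ras to ERK. Several neighbours on the chromosome act on the same cascade: Ksr2 is a scaffold for Raf and MEK, Brap is a Ras-responsive ubiquitin ligase that restrains such scaffolds, Ptpn11 (the phosphatase SHP2) promotes Ras activation, and Sh2b3 (the adaptor LNK) dampens cytokine signals in HSCs. Other members work in AMP-activated protein kinase (Prkab1), in endosome recycling (Rab35), in Golgi proteolysis (Sppl3) and in histone H4 methylation (Setd8).

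The sequences just upstream of 4 of these genes are shown because the account turns on them: Pebp1 as the gene with the highest Mut level relative to WT among abundant members, and Rab35, Prkab1 and Setd8 as genes with low Mut levels. Each stretch comes from the RefSeq promoter table (build GRCm38.p6), is given 5′ to 3′ on the gene's own strand, and ends before the most upstream annotated transcript start. Capitals mark the GC box (GGGCGG) and the CCAAT box (CCAAT), each searched on both strands.

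Pebp1 (chr5:117287626-117287814, minus strand, 189 bases): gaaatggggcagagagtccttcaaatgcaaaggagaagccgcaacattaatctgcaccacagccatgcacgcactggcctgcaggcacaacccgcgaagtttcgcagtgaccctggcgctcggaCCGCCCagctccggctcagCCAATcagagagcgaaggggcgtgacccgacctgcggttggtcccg

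Rab35 (chr5:115631737-115631907, plus strand, 171 bases): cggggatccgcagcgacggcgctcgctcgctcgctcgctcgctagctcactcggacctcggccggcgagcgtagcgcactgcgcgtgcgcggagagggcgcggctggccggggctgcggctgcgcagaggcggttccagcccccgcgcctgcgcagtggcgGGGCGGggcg

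Prkab1 (chr5:116024509-116024678, minus strand, 170 bases): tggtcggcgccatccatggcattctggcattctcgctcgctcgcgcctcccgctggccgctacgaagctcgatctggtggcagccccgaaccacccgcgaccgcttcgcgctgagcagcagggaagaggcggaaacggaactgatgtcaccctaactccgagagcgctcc

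Setd8 (chr5:124439680-124439929, plus strand, 250 bases): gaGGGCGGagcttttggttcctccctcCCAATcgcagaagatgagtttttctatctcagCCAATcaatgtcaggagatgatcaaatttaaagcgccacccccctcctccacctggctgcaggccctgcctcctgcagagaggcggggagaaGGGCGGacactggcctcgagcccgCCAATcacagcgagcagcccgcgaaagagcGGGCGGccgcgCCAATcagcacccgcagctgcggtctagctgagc

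The Pebp1 stretch held 1 GC box, on the reverse strand, and 1 CCAAT box, and the Rab35 stretch held 1 GC box. In Setd8 there were 3 GC boxes and 4 CCAAT boxes, and in Prkab1 neither motif was found in this window. RefSeq windows of 250 bases before the start were matched for 151 members, of which 67.5% held GGGCGG and 30.5% CCAAT, against 58.9% and 36.0% of 10073 promoters over the genome. The core of the cAMP response element, TGACG, was in 27.2% of the members' windows and 26.8% of all, and the full element TGACGTCA, which contains it, in 2.65% and 2.67%. TATAAA was in 1.99% and 6.26%, the ETS site CCGGAAG in 17.2% and 14%, the E-box CACGTG in 5.96% and 8.47%, and the NRF1 core GCATGCGC in 9.27% and 4.57%. Fam69a had no entry in the promoter table. A match gives letters and no evidence of binding.

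Along the 20 Mb the difference between the groups was small for most genes and went both ways. Of the 191 tested members 87 had higher and 104 had lower values in Mut; the log2 fold change had a median of -0.03 and middle values between -0.16 and 0.10 (25th and 75th percentiles). Over all genes tested, 7230 were higher and 7213 lower, with a median of 0.0003, and over the 699 other tested genes of chromosome 5 the median was -0.01. No member passed the edgeR quasi-likelihood test at an adjusted p of 0.05, where 0.0208% of all genes did. At an unadjusted p under 0.05 there were 15 members, 6 higher and 9 lower (3.99% of all genes). DESeq2 on the same counts gave 4 members below an adjusted p of 0.05 (0.265% of all genes), the same 4 as in the authors' deposited table (0.231%). In 13 members all Mut libraries lay above all WT libraries in CPM (counts scaled to library size), and in 15 all lay below; over all genes these shares were 5.87% and 4.38%. An exact two-sided permutation test of 3 against 3 libraries cannot give a p below 0.1, whatever the gene.

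**Figure D1:**
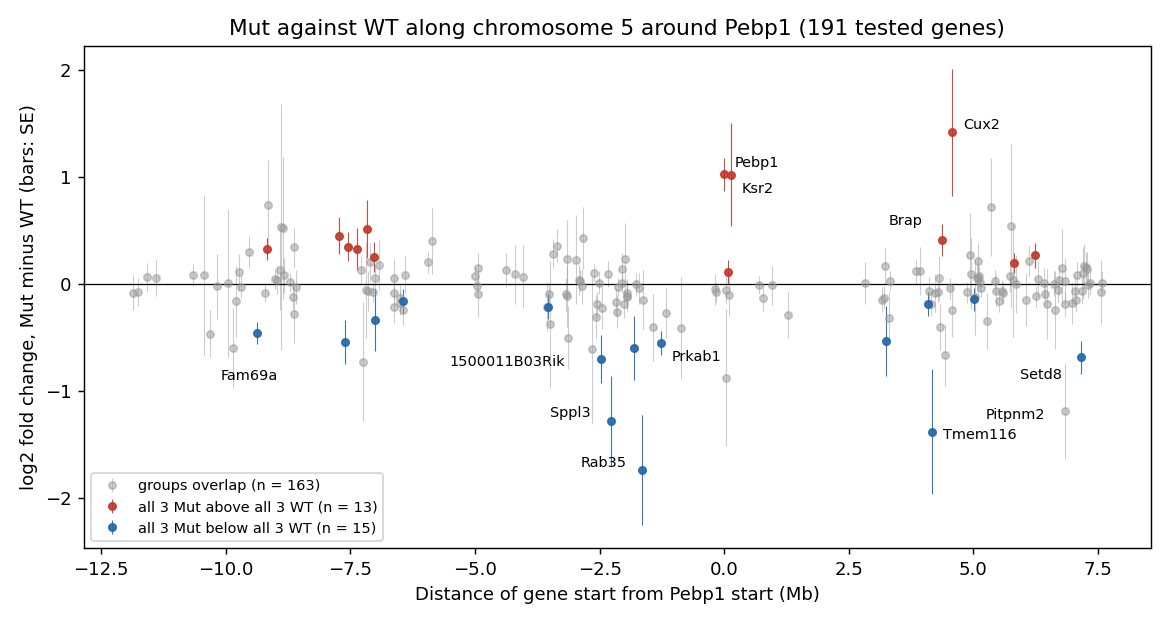
Log2 fold change (Mut minus WT, edgeR; bars are SE) of the 191 tested members against the distance of each gene's start from that of Pebp1, in Mb. Red points are the 13 genes with all Mut libraries above all WT libraries and blue points the 15 with all below; Pebp1 stands at 1.02, with Rab35 at -1.74 and Sppl3 at -1.28 on its left.

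Lower values were most frequent in the step of 2 Mb just before Pebp1, and the 10 steps differed in sign. In that step, between 115 and 117 Mb, 17 of 20 tested members had lower values and 3 had higher ones, at a median log2 fold change of -0.16. Between 117 and 119 Mb, the step that holds Pebp1, 9 of 12 were lower and the median was -0.05. The highest median, 0.13, was that of the 7 tested genes between 111 and 113 Mb, and at the far ends the medians were 0.06 in the first step and 0.003 in the last. The step before Pebp1 was picked from the 10 after their values were seen. In it the median deviation of genes from their mean over the 6 libraries was 0.10, 0.14 and 0.07 in WT and -0.11, -0.12 and 0.01 in Mut, so Mut replicate 3 lay closest to WT. With each library left out in turn, 14 (without WT replicate 1) to 19 (without Mut replicate 3) genes of the step had lower values. The median of the step was -0.10 without Mut replicate 2, -0.11 without Mut replicate 1 and -0.21 without Mut replicate 3.

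**Figure D2:**
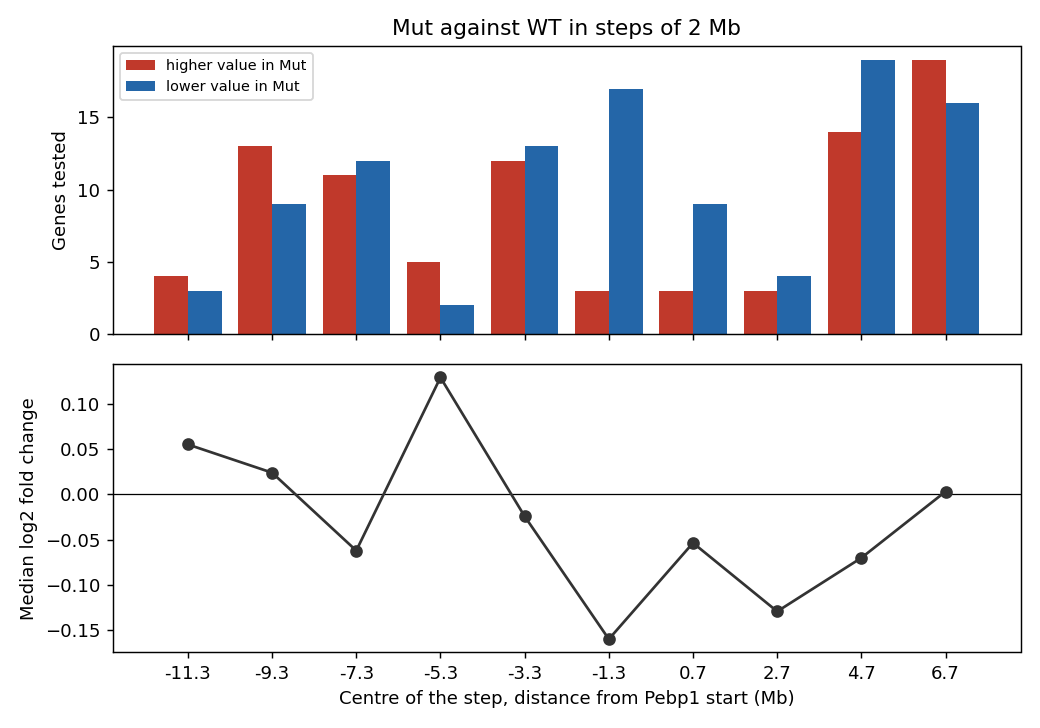
Number of tested members with higher (red) and lower (blue) values in Mut, above, and median log2 fold change, below, in steps of 2 Mb placed by distance from the Pebp1 start. The step just before Pebp1, centred at -1.3 Mb, has 3 higher and 17 lower genes and the lowest median.

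Pebp1 was the second most abundant tested member in Mut and the fifth in WT by mean FPKM. It starts at chr5:117282651 and ends at 117287625 on the minus strand (ENSMUSG00000032959). Its level was 173, 178 and 160 FPKM in WT replicates 1 to 3 and 363, 267 and 407 FPKM in Mut replicates 1 to 3. All Mut libraries lay above all WT libraries, with Mut replicate 2 the nearest at 1.49 times the highest WT library in CPM. The means were 170.3 ± 9.61 and 345.9 ± 71.6 FPKM (SD, n = 3 each), which makes the Mut mean 203% of the WT mean. The log2 fold change was 1.02 (SE 0.15), with an edgeR quasi-likelihood adjusted p of 0.297 and a DESeq2 adjusted p of 8.49e-07. The authors' deposited table gives 1.02 with an adjusted p of 5.19e-07. Pebp1 alone took 1.34% to 1.54% of the members' reads in WT and 2.32% to 3.50% in Mut.

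Near-identical copies of Pebp1 were counted apart from it. The processed pseudogenes Gm10819 on chromosome 19 and Gm9824 on chromosome 10 match 564 and 561 bases of the Pebp1 transcript at 99.1% and 98.9% identity. Gm10819 had 52, 25 and 22 reads in WT and 60, 47 and 55 in Mut, and Gm9824 had 19, 22 and 19 reads in WT and 54, 40 and 62 in Mut. With counts scaled to library totals alone, the groups did not overlap for Gm9824 and overlapped for Gm10819. Together both copies amounted to 0.852% to 1.30% of the Pebp1 reads of a library, and the assignment of reads that fit several places is not given in the sources used. These 2 pseudogenes lie outside the interval and were looked up for their sequence.

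Most immediate neighbours of Pebp1 had overlapping groups, and the exceptions were Ksr2 and Wsb2. Of the 11 other tested members starting within 1 Mb, 2 had higher and 9 lower values in Mut, the groups overlapped for 9, and the median log2 fold change was -0.06. Ksr2, which starts 0.131 Mb beyond the Pebp1 start, had 15, 19 and 12 reads in WT and 27, 40 and 28 in Mut, at most 0.114 FPKM in any library. Its groups did not overlap, and its log2 fold change of 1.02 (SE 0.48) was as large as that of Pebp1 at far fewer reads. Taok3, a stress-activated kinase that ends just before Pebp1 on the opposite strand, had 32.9, 33.6 and 33.6 FPKM in WT and 34.2, 31.3 and 29.3 in Mut, with overlapping groups. Suds3, a subunit of the Sin3 corepressor, had 15.97 ± 1.58 and 15.4 ± 1.80 FPKM, and the immunoglobulin-domain gene Vsig10 8.14 ± 0.354 and 7.83 ± 0.914 FPKM. Fbxo21 and Fbxw8, which encode F-box proteins of ubiquitin ligases, had log2 fold changes of -0.01 (SE 0.09) and -0.13 (SE 0.12), and 2410131K14Rik had -0.02 (SE 0.18).

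Among the remaining neighbours, Rfc5, a subunit of the clamp loader of DNA replication, had 43.3, 49.5 and 42.5 FPKM in WT and 40.4, 30.5 and 54.9 in Mut, so that the Mut libraries enclosed the WT range. The small heat shock protein gene Hspb8 was the most uneven of these neighbours, with 5.58, 4.91 and 6.88 FPKM in WT and 1.69, 7.31 and 3.91 in Mut. Wsb2, a SOCS box gene, had 858 to 1008 reads in WT and 959 to 1073 in Mut (log2 fold change 0.11, SE 0.11), and its groups were apart in CPM and overlapped in FPKM. Wsb2 shares 499 exon bases on the opposite strand with Rfc5, a gene with 3060 to 5106 reads per library. Gm10399 had 33 reads or fewer in any library (log2 fold change -0.88, SE 0.64) and shares 162 exon bases with Vsig10 on the opposite strand. Strand use in counting is not given in the sources used, so reads in the shared bases of such pairs cannot be told apart.

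Ras, MAPK and cytokine signalling genes went both ways. Of 9 tested genes on this list, 5 had higher and 4 lower values, and the median log2 fold change was 0.11; all Mut libraries lay above WT in 4 (Pebp1, Brap, Ksr2 and Wsb2) and below WT in 1 (Trafd1), where 5.87% and 4.38% of all genes did so. The sum over the list was 254 to 281 FPKM in WT and 362 to 502 in Mut, and Pebp1 makes up most of it. Brap had 13.5, 11.02 and 9.51 FPKM in WT and 15.4, 13.7 and 16.2 in Mut (log2 fold change 0.41, SE 0.15; edgeR quasi-likelihood adjusted p = 0.999). The highest WT and the lowest Mut library of Brap differed by a factor of 1.03 in CPM.

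The other genes of that list overlapped or differed little. Sh2b3 had 22.8 ± 1.45 FPKM in WT and 22.1 ± 1.69 in Mut, and the phosphatase gene Ptpn11 6.55 and 7.08 FPKM. Tgfbr3, the co-receptor betaglycan, had 17.8 ± 5.55 and 17.5 ± 7.55 FPKM. Trafd1, a feedback inhibitor of innate immune signalling, had 1653 to 2067 reads in WT and 1618 to 1737 in Mut (log2 fold change -0.19, SE 0.11), with groups apart in CPM and overlapping in FPKM. Crlf2, the subunit that with the interleukin-7 receptor forms the receptor for thymic stromal lymphopoietin, was not on the list; it had 10.98, 11.01 and 11.4 FPKM in WT and 18.4, 13.9 and 13.3 in Mut. Its groups did not overlap, with a log2 fold change of 0.45 (SE 0.18).

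The cascade that Pebp1 acts on is encoded elsewhere in the genome and was read from a list of 27 genes, 26 of them tested. None passed the edgeR quasi-likelihood test, and 11 had higher and 15 lower values (median -0.05 on the log2 scale). The groups did not overlap for 2 higher and 4 lower genes of the 26, where 5.87% and 4.38% of all genes tested did so. Map2k1 (MEK1) had 47.6 ± 3.48 FPKM in WT and 49.4 ± 1.24 in Mut, and Dusp6, a phosphatase induced by ERK activity, had 36.9 ± 8.40 and 37.0 ± 8.42. Spry1, a feedback inhibitor of receptor tyrosine kinase signalling, had 7.92, 3.44 and 3.52 FPKM in WT and 1.57, 1.52 and 2.56 in Mut, with no overlap (log2 fold change -1.39, SE 0.40). The exchange factor gene Sos2 had -0.54 (SE 0.29), the scaffold gene Shoc2 0.33 (SE 0.11) and Spry4 -0.29 (SE 1.09). Map2k1 and Dusp6 were named for their place in the cascade, after their values were seen.

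**Figure D3:**
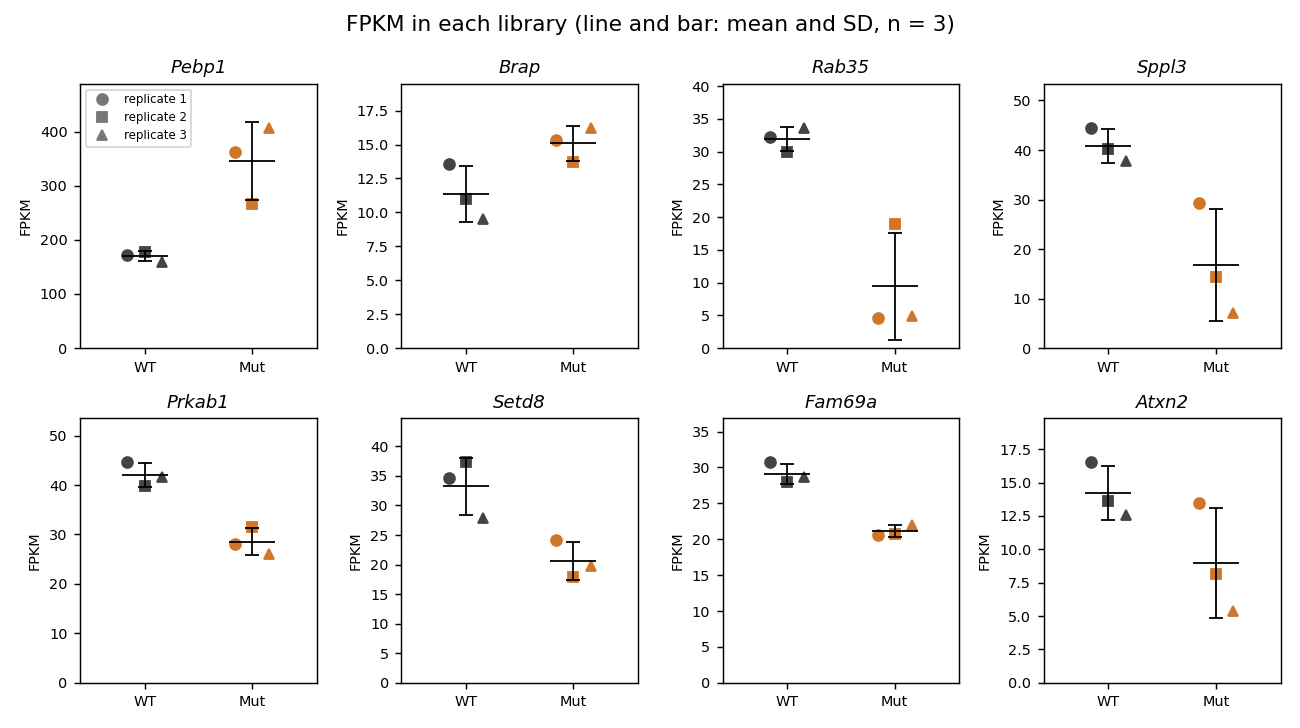
FPKM in each library for 8 members (points; shapes mark the replicate number) with the group mean and SD (n = 3 each). Pebp1 and Brap lie higher in all Mut libraries, Rab35, Sppl3, Prkab1, Setd8 and Fam69a lie lower in all, and for Atxn2 the groups overlap.

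Rab35, a small GTPase that returns cargo from endosomes to the plasma membrane, had the lowest Mut level relative to WT among members above 20 CPM. It starts at 115631929, 1.65 Mb before Pebp1, on the plus strand. Its level was 32.2, 30.0 and 33.6 FPKM in WT and 4.66, 18.9 and 4.84 in Mut. The groups were far apart, and the Mut libraries split, with replicate 2 at several times the level of replicates 1 and 3. The log2 fold change was -1.74 (SE 0.52; edgeR quasi-likelihood adjusted p = 0.999). Without Mut replicate 2 it was -2.75 and the adjusted p of the same test was 5.83e-04; in that fit 0.0406% of all genes passed.

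Sppl3, a Golgi protease that cuts and releases glycosyltransferases, starts 2.27 Mb before Pebp1. Its level was 44.5, 40.2 and 37.7 FPKM in WT and 29.2, 14.3 and 7.07 in Mut, which is -1.28 as a log2 fold change (SE 0.42; edgeR quasi-likelihood adjusted p = 0.999). All Mut libraries lay below WT, and here replicate 3 was the lowest and replicate 1 the nearest to WT. The predicted gene Gm10401 shares 607 exon bases with it on the opposite strand. The processed pseudogene Gm43442 matches 412 bases of the Sppl3 transcript at 99.5% identity and is not in the count table.

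Rab35 and Sppl3 stood apart from other members in how far their Mut libraries were spread. Among the 130 members with at least 20 CPM in WT they were the 2 whose highest Mut library exceeded the lowest at least 3-fold, by 4.18-fold for Rab35 and 4.03-fold for Sppl3, while their WT libraries spanned 1.09-fold and 1.18-fold. These 2 were 1.54% of the 130 members. Over all genes of that level, 1.11% had such a spread in Mut and 0.731% in WT, the latter with 0 members. The range was wider in Mut than in WT for 77 of the 130 members. The same count over all genes is not given here, so nothing is read from the 77. Atxn2, an RNA-binding protein gene at the Sh2b3 locus, had 16.5, 13.6 and 12.6 FPKM in WT and 13.4, 8.16 and 5.37 in Mut; its groups overlapped (log2 fold change -0.67, SE 0.29). 1500011B03Rik had 53.4, 45.0 and 49.4 FPKM in WT and 30.2, 39.8 and 20.6 in Mut with no overlap (log2 fold change -0.70, SE 0.22). Atxn2 and 1500011B03Rik were chosen after their values were seen.

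**Figure D4:**
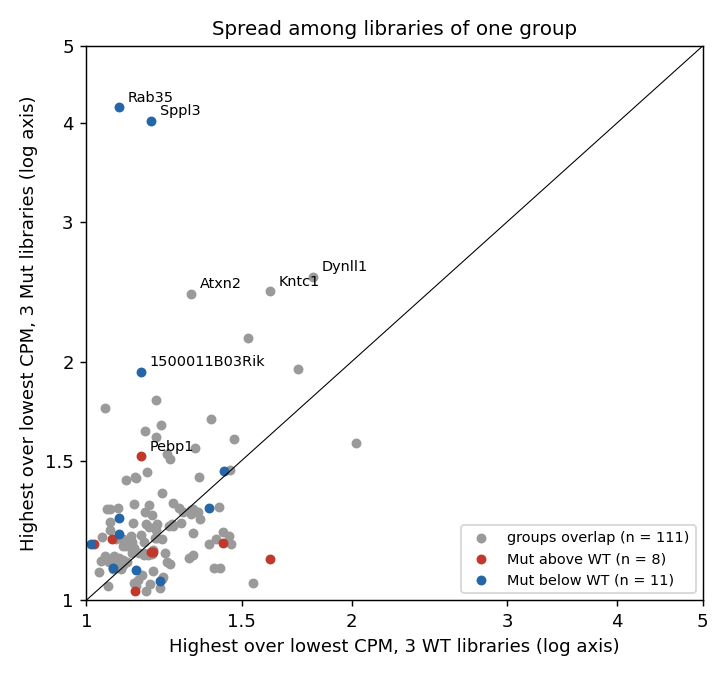
Highest over lowest CPM among the 3 Mut libraries against the same ratio among the 3 WT libraries, for the 130 members with at least 20 CPM in WT; both axes are logarithmic and the line marks equal spread. Rab35 (4.18 in Mut, 1.09 in WT) and Sppl3 (4.03 and 1.18) lie far above the line, and 77 genes lie above it in all. The same count over all genes is not given here.

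Prkab1, Setd8 and Fam69a showed smaller differences than Rab35 and Sppl3. Prkab1, the beta-1 subunit of AMP-activated protein kinase, starts 1.27 Mb before Pebp1 and had 44.6, 39.8 and 41.7 FPKM in WT and 28.0, 31.5 and 26.1 in Mut. The Mut mean was 67.9% of the WT mean with no overlap (log2 fold change -0.55, SE 0.11; edgeR quasi-likelihood adjusted p = 0.705, DESeq2 adjusted p = 0.00794). The authors' deposited table gives -0.56 for Prkab1 with an adjusted p of 0.00905.

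Setd8, the enzyme for monomethylation of histone H4 at lysine 20 (Kmt5a in RefSeq), lies 7.16 Mb beyond Pebp1. It had 34.6, 37.3 and 27.9 FPKM in WT and 24.2, 18.0 and 19.8 in Mut, and the Mut mean was 62.1% of the WT mean. The groups did not overlap, with Mut replicate 1 nearest to WT (log2 fold change -0.69, SE 0.16; edgeR quasi-likelihood adjusted p = 0.868, DESeq2 adjusted p = 0.0247). The authors' deposited table gives -0.70 for Setd8 with an adjusted p of 0.0229.

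Fam69a, a transmembrane protein of the endoplasmic reticulum, starts 9.37 Mb before Pebp1. It had 30.7, 28.0 and 28.7 FPKM in WT and 20.6, 20.8 and 22.0 in Mut, the narrowest Mut range of the 3 genes, with no overlap (log2 fold change -0.46, SE 0.10; edgeR quasi-likelihood adjusted p = 0.758, DESeq2 adjusted p = 0.0247). The authors' deposited table gives -0.47 with an adjusted p of 0.0315. It shares 953 exon bases with Rpl5 on the opposite strand, a gene with 9638 to 14656 reads per library against 1279 to 2118 for Fam69a. Sequence copies at 95% identity or more over at least 200 bases were found for neither Fam69a nor Rab35, Prkab1 or Setd8 among annotated transcripts.

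Mitochondrial and metabolic genes had lower values for 11 of 15 tested members, at a median log2 fold change of -0.10. Of all 191 tested members 104 were lower. On this list all Mut libraries lay above WT in 2 genes and below WT in 1, where 5.87% and 4.38% of all genes tested did so. Sirt4, a mitochondrial sirtuin, had 4.11, 5.73 and 5.46 FPKM in WT and 2.30, 4.003 and 3.77 in Mut, with the highest Mut library at 99.5% of the lowest WT library in CPM (log2 fold change -0.60, SE 0.30). The 2 genes with all Mut libraries above WT were Diablo, which releases caspases from their inhibitors, at 20.8 ± 2.23 and 24.96 ± 1.51 FPKM, and the phosphatase gene Pgam5 at 9.34 ± 0.515 and 11.1 ± 0.302 FPKM. The most abundant, Aldh2, which detoxifies acetaldehyde, had 189 ± 14.8 and 179 ± 9.07 FPKM with overlapping groups. Tpst2, Sdsl and Gatc had log2 fold changes of 0.07, -0.15 and -0.13. Outside that list, Hscb, a co-chaperone of iron-sulfur cluster assembly, had -0.16 (SE 0.11), the phosphatase gene Pptc7 -0.14 (SE 0.11) and the peroxisomal membrane gene Pxmp2 -0.34 (SE 0.29), each with all Mut libraries below WT in CPM. Pptc7 overlapped in FPKM. Diablo shares 1193 exon bases with the protein-coding gene Gm49027 on the same strand and 1326 with B3gnt4 on the opposite strand. Neither of these is in the count table.

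Genes of DNA replication, repair and the cell cycle also had lower values for 11 of 15, with a median of -0.11, and none had groups apart. The lists were written with earlier results of these data known, and the counts of lower genes were not tested. Anapc5, a subunit of the anaphase-promoting complex, had 212 ± 11.7 FPKM in WT and 190 ± 21.7 in Mut, and Cdk2ap1 72.7 ± 4.44 and 65.6 ± 6.504. Rfc5 (above) and Ankle2 (log2 fold change -0.08, SE 0.09) were within the spread. Summed over the list, WT libraries lay at 443 to 477 FPKM and Mut libraries at 383 to 470, which overlap.

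Vesicle, lysosome and lipid transfer genes had 12 higher and 7 lower values, with a median of 0.06 despite Rab35. Tmed5, a cargo receptor between endoplasmic reticulum and Golgi, had 23.6, 24.5 and 24.5 FPKM in WT and 28.1, 32.5 and 30.3 in Mut with no overlap (log2 fold change 0.33, SE 0.10); it shares 395 exon bases with Mtf2 on the opposite strand. Gltp, Tmed2, Vps29 and Rilpl2 overlapped between groups, with log2 fold changes of 0.10, 0.16, 0.06 and -0.06. Among genes of the cytoskeleton and adhesion 6 were higher and 5 lower (median 0.03). Rhof, a GTPase of filopodia, had 32.5 ± 0.652 FPKM in WT and 37.2 ± 2.62 in Mut with no overlap, while Arpc3, Pxn and Dynll1 overlapped at 0.08, -0.01 and 0.23.

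Chromatin and transcription genes had 11 higher and 8 lower values (median 0.01), with Setd8 as the gene below WT in all libraries. Zfp605, a zinc finger gene, had 2.45, 2.33 and 2.13 FPKM in WT and 2.92, 4.39 and 2.49 in Mut with no overlap. Cux2, a homeobox gene, had 10, 10 and 12 reads in WT and 16, 23 and 48 in Mut (log2 fold change 1.42, SE 0.59), where Mut replicate 3 held most of the reads. Mtf2, Dr1 and Zfp664 overlapped, with log2 fold changes of -0.08, 0.05 and 0.007. RNA processing and translation genes had 7 higher and 9 lower values (median -0.02), none of them apart; Atxn2, described above, is on this list, and Noc4l and Pus1 had -0.21 (SE 0.16) and -0.18 (SE 0.12). Srsf9 had -0.11 and Denr 0.0003. Sart3, a recycling factor of the spliceosome that is on no list, had -0.21 (SE 0.11) with all Mut libraries below WT.

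Other kinases and phosphatases had 4 higher and 7 lower values (median -0.08); besides Prkab1, the abundant Ppp1cc, Gak and Taok3 had -0.08, 0.01 and -0.08. Endoplasmic reticulum and ubiquitin genes had 4 higher and 7 lower values (median -0.03), with Sppl3 the gene apart, and Mlec, Rnf10 and Ube3b had -0.03, 0.002 and 0.03. Ion channels and pumps had 4 higher and 5 lower (median -0.002), with none apart; Atp2a2, the calcium pump of the endoplasmic reticulum, had 60.2 ± 4.30 and 58.6 ± 2.40 FPKM, and Orai1, P2rx4 and Lrrc8d had 0.07, 0.02 and 0.06. In all, 133 of the tested members had a role on these lists. Over all genes tested, 5.87% had all Mut libraries above WT and 4.38% all below, and no list was tested as a set.

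**Figure D5:**
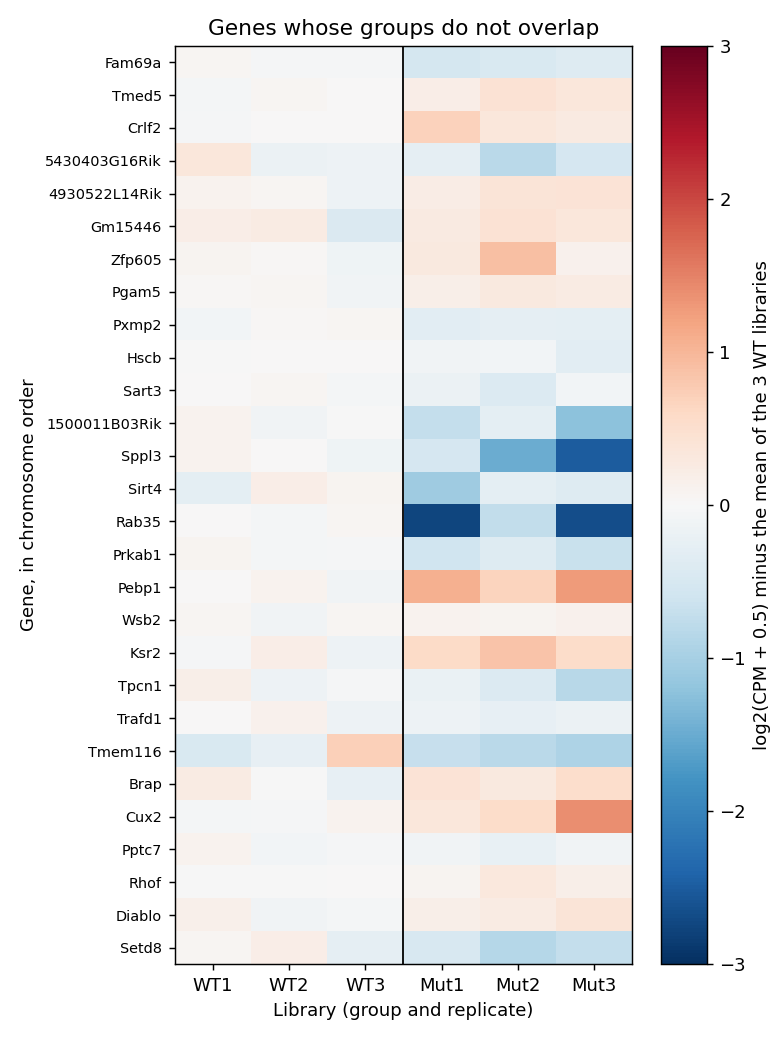
Log2(CPM + 0.5) of each library minus the mean of the WT libraries, for the 28 members whose groups do not overlap, in chromosome order. The darkest blue cells are Rab35 in Mut replicates 1 and 3 and Sppl3 in Mut replicate 3. Both genes differ between Mut replicates, and Pebp1 is red in all 3 Mut columns.

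The 28 members with groups apart differed in which Mut library lay nearest to WT. They were picked for having all Mut libraries beyond all WT libraries. The counts below therefore cannot show whether a single Mut library leads the differences. The Mut library nearest to WT was replicate 1 for 7 of the 13 higher genes, replicate 2 for 3 and replicate 3 for 3. For the 15 lower genes it was replicate 1 for 7, replicate 2 for 6 and replicate 3 for 2. Mut replicate 2 was nearest for Pebp1, Brap, Wsb2, Rab35, Prkab1, Sirt4 and 1500011B03Rik, while Mut replicate 1 was nearest for Sppl3 and Setd8. In 25 of the 28 the groups were apart in FPKM too, the exceptions being Wsb2, Trafd1 and Pptc7. The 5 members with profiles most like Pebp1, by Pearson correlation of log2 CPM over the 6 libraries, were Brap, Cux2, 4930522L14Rik, Pgam5 and Ksr2; all 5 had groups apart, so the likeness includes the difference between the groups. Among them 4930522L14Rik had 14.03, 13.2 and 11.9 FPKM in WT and 15.4, 16.9 and 17.3 in Mut.

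Few abundant members differed by much. A log2 fold change of at least 0.5 in either direction was seen in 25 tested members (13.1%), against 14.6% of all genes tested. Of members with a mean of at least 20 CPM, 8 of 132 (6.06%) passed this size, against 2.36% of all genes of that level. They were Pebp1, with the higher level in Mut, and Rab35, Sppl3, 1500011B03Rik, Setd8, Atxn2, Prkab1 and 5430403G16Rik, with lower ones. The interval was chosen with these differences known, so nothing is read from the comparison.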

How the data were processed

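RNA sequencing of 6 libraries gave 3 WT and 3 Mut, set by the genotype label. CASAVA, STAR, DESeq2, HTSeq 0.6.1 and the build mm10 are named in the submitters' processing notes without a role or order. Not given in the sources used here are the annotation release and the strand setting of the counting. The authors' table holds raw read counts per gene, with FPKM values scaled by the authors to gene length and library size. The authors also deposited log2 fold changes of Mut over WT and p-values, raw and adjusted, printed only where named. The authors' normalized counts and a further FPKM table were not used.

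The counts were fitted with edgeR 4.0.16 (R 4.3.3) over the whole table: TMM scaling, filterByExpr, quasi-likelihood F test, two-sided, Benjamini-Hochberg adjustment over 14443 genes, threshold 0.05. Standard errors were taken as the size of the log2 fold change over the root of the F statistic. CPM values use the TMM factors, except for the Pebp1 pseudogenes, and FPKM values are as deposited. DESeq2 1.42.0 and limma 3.58.1 on log2 FPKM were alternatives, with other scaling, no filter on low counts, a replicate block, a term for Y-linked reads, narrower bounds and each library left out in turn. The fit was checked on simulated counts.

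Members, lists and rules were chosen with earlier results of these data known. Named genes were Pebp1 and tested members within 1 Mb; members of at least 2 FPKM with groups apart, up to 12 per direction, without predicted or clone names; up to 4 abundant members per list; the authors' deposited calls; and the 5 profiles most like Pebp1. Of the 216 members, 213 matched GENCODE M21 by identifier, which gave overlaps and copies. Promoters came from RefSeq. Some genes of the lists and edges are not reported here. Library totals of 22796771 to 26734561 reads set the precision, which is low for genes with few reads.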

Additional observations from a re-analysis of the deposited data

How the results depend on the processing

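No member passed the edgeR quasi-likelihood test with all libraries, with the replicate block, with other size factors, without a filter on low counts or with a term for Y-linked reads, nor limma on log2 FPKM; DESeq2 gave 4, and leaving out each library in turn gave 0 to 1, the 1 being Rab35 without Mut replicate 2. With the replicate block the median log2 fold change of the members was -0.035 and that of Ramp1 -5.24. Same-numbered libraries deviated from their group means with correlations of 0.14, 0.002 and -0.09, and differently numbered ones with -0.13 to 0.15. Y-linked reads lay in replicate 1 of both groups. Whether the numbers pair the libraries cannot be told from these values. Members with groups apart numbered 18 to 23 (higher) and 20 to 34 (lower) with 1 library left out; separation comes more easily with 5 libraries than with 6. Counts over 1.5 times the value with all libraries arose for higher genes without WT replicates 1 (23) and 3 (22) and Mut replicates 1 (22), 2 (22) and 3 (20), and for lower genes without WT replicates 1 (25), 2 (27) and 3 (31) and Mut replicates 1 (33) and 3 (34). Between 110 and 120 Mb alone there were 5 higher and 8 lower members apart, with a median of -0.074. On the FPKM scale 12 and 13 were apart. Shares over all genes in these settings are not given here, so nothing is read from these counts about the members. Of 828 values for 64 named genes over 13 settings, 826 moved by less than 1 SD between libraries; the others were Rab35 (-2.75 without Mut replicate 2) and Cux2 (0.83 without Mut replicate 3). Signs changed in 45 values of 20 genes, none above 0.23 in size in the fit with all libraries. Pebp1 stayed positive in 13 of 13 settings, between 0.87 and 1.18. Depth limits genes with few reads, such as Ksr2, Cux2 and Gm10399.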

Other observations

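Genes of other types in the same interval are not members, and 30 of them were tested. Of these, 2 had all Mut libraries above WT and 5 all below, where 5.87% and 4.38% of all genes tested did so. None of the 30 passed the edgeR quasi-likelihood test, and those named here were chosen after their values were seen. The antisense transcript 4930515G01Rik, which starts at 114773737, had 205, 119 and 195 reads in WT and 69, 69 and 60 in Mut (log2 fold change -1.40, SE 0.31; edgeR adjusted p = 0.805). The long non-coding RNA Gm26745 had 13, 22 and 26 reads in WT and 2, 2 and 0 in Mut. Gm13842, which starts just beyond Prkab1, had 45, 23 and 48 reads in WT and 11, 22 and 0 in Mut, so 1 Mut library was close to the lowest WT library. The pseudogene Rpl37rt went the other way, with 159, 215 and 161 reads in WT and 270, 349 and 223 in Mut (log2 fold change 0.63, SE 0.25). Gm26808 had 11, 7 and 4 reads in WT and 17, 21 and 13 in Mut. Because strand use in counting is not known, antisense reads may come from the genes they overlap.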
